A study of Mus musculus with 6 samples.

Results

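Collagens and laminins, the main structural proteins of the extracellular matrix, were examined as a group in whole testes of newborn mice. A gene belonged to the group if its mouse symbol had the form of a collagen chain (Col, a type number, a, a chain number) or of a laminin chain (Lama, Lamb or Lamc and a number) and its mean level over the 6 libraries was at least 0.5 CPM (a gene's counts scaled to a common library total). Of 57170 identifiers in the table, 55 carried such a symbol, 44 of collagen and 11 of laminin chains, and 51 reached the threshold. These 51 comprised 11 fibrillar collagen chains, 16 basement membrane chains (6 type IV collagens and 10 laminins) and 24 other collagen chains. All 51 also passed the filter on low counts and were tested. Nearest to the threshold from above were Col8a1 at 0.641 CPM and Col2a1 at 0.66 CPM, and nearest from below were Col28a1 at 0.459 CPM and Col10a1 at 0.303 CPM. The remaining chains below it were Lamb3 (0.23 CPM) and Col19a1 (0.0184 CPM).

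Polyadenylated RNA of testes at postnatal day 5 was sequenced from 2 groups. The sKO group has 4 libraries, sKO-1 to sKO-4, from testes in which Mdm2 was conditionally deleted in germ cells before meiosis. The WT group has 2 libraries, WT-1 and WT-2, labelled wild type. The Cre driver, the strain and the number of animals behind each library are not stated in the labels, so the p-values below measure the spread between these libraries, which may be technical. The design text gives 3 replicates per group, and the titles and genotype labels, which differ from it, were followed.

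Collagens are trimers of chains whose long helical stretch repeats glycine with a fixed spacing of triplets. Fibrillar collagens form the striated fibres of connective tissue, which in the testis lie in the interstitium and the tunica albuginea. Type IV collagens form the flexible network of basement membranes, and laminins, each made of an alpha, a beta and a gamma chain, form a second network beside it. In the testis a basement membrane that Sertoli cells and peritubular myoid cells build together encloses the seminiferous cords, and spermatogonia rest on it; blood vessels have their own.

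The division between fibrillar and type IV chains is visible in the coding sequences, and 1 stretch of 90 bases from each of 3 chains is shown as an illustration. The stretches come from GENCODE M21 transcripts (coding bases 502 to 591 of Col1a1, 3130 to 3219 of Col4a1 and 1924 to 2013 of Col22a1). Capitals mark glycine codons (GGN) that recur every 9 bases in runs of at least 5.
Col1a1: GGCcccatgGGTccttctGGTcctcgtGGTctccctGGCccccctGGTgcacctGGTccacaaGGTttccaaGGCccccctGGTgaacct
Col4a1: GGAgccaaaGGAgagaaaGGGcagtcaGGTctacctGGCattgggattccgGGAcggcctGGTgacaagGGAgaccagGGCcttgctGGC
Col22a1: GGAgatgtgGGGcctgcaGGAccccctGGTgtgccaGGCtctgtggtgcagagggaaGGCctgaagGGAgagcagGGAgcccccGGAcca
The Col1a1 stretch was chosen at the start of its longest run, and those of Col4a1 and Col22a1 were chosen to span a break. By this choice the spacing of 9 bases holds throughout in Col1a1 and is broken once in Col4a1 and Col22a1. Over the whole coding sequence the longest unbroken run was 338 glycine triplets in Col1a1 and ran from 216 to 344 in the 11 fibrillar chains. It was 40 in Col4a1 and between 39 and 66 in the 6 type IV chains, whose runs were broken 21 to 26 times, against 1 or 2 breaks in the fibrillar chains. Exons of the fibrillar genes also shared a length: 21 to 33 coding segments per gene were exactly 54 bases long, against 1 to 3 in the type IV genes. Col22a1 had 28 such segments, and its longest run of 113 triplets lay between the ranges of those classes.

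The libraries held 17990837 to 18394437 counts each. Mdm2, the targeted gene, encodes the ubiquitin ligase that keeps p53 low. It was at 43.0 ± 4.24 CPM in sKO and 71.6 ± 6.19 CPM in WT (SD, n = 4 and 2; log2 fold change −0.74, edgeR adjusted p = 0.0241). Here and below CPM are scaled by TMM, a normalisation for library composition, unless stated otherwise. Of 11 germ cell markers 11 were lower in sKO, and their summed level was 82.9 to 140 CPM in sKO against 472 to 674 CPM in WT. Along principal component 1 (38.1% of variance) the libraries fell apart into sKO-1, sKO-2 and WT-1 (subset 1) and sKO-3, sKO-4 and WT-2 (subset 2). The labels name no batch that would match the subsets. Each subset holds 2 sKO and 1 WT libraries, so values are also given within them.

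Fibrillar, type IV and type VI chains led in the neonatal testis when counted per length. Per kilobase of the union of exons, Col3a1 was the most abundant chain at 215 CPM per kilobase (mean of 6 libraries), followed by Col1a1 (201), Col4a1 (184), Col6a1 (174), Col1a2 (165), Col4a2 (117) and Lamb1 (79.6). The SDs of the first 5 overlap their neighbours in this order: Col3a1 was at 222 ± 27.9 in sKO and 200 ± 41.9 in WT, and Col1a2 at 172 ± 21.5 in sKO and 153 ± 27.9 in WT. The choice of length moves this order, since with the longest transcript in its place Col1a2 ranked 1 and Col3a1 ranked 2. At the other end, Col2a1, the fibril chain of cartilage, had 0.0714 CPM per kilobase. Summed per kilobase, fibrillar chains stood to type IV and laminin chains at 1.07 ± 0.0434 in sKO and 1.12 ± 0.0716 in WT (SD, n = 4 and 2), and the groups overlapped. The mean of this ratio over the 6 libraries was 1.08 with the union of exons and 1.48 with the longest transcript, so its size depends on the length used.

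**Figure D1:**
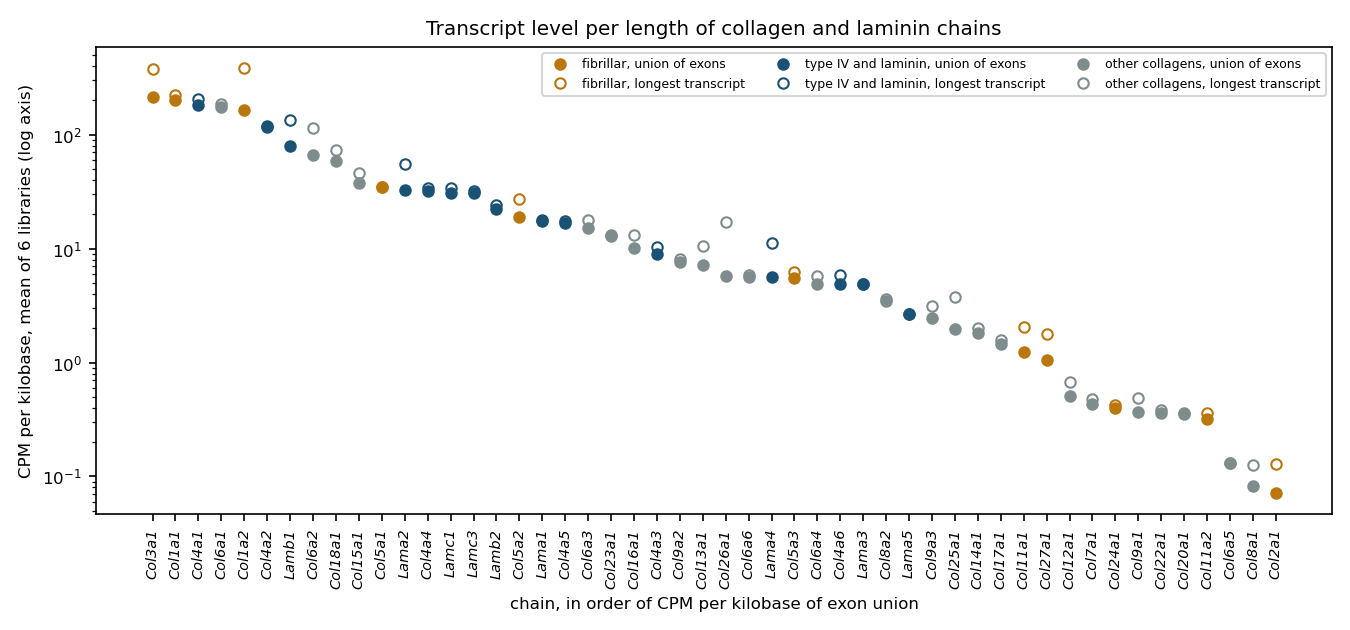
Level of 50 chains per kilobase, as the mean of the 6 libraries on a log axis, with filled points for the union of exons and open points for the longest transcript. Col3a1, Col1a1 and Col4a1 lead by the union of exons at 215, 201 and 184 CPM per kilobase, and the chains span more than 3 orders of magnitude, down to Col2a1 at 0.0714.

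sKO testes were compared with WT testes across the 51 chains. Of the 51 chains, 1 was lower in sKO (Col22a1) and 0 were higher (edgeR quasi-likelihood test, Benjamini-Hochberg adjusted over all 17707 genes). Across all genes 2.3% were lower and 0.124% were higher, so 1 of 51 is close to the background. At an unadjusted p under 0.05, 5 of the 51 chains passed, against 13.1% of all genes. DESeq2 also gave 1 chain lower and 0 higher. The log2 fold change was above 0 for 41 chains (80.4%, against 55.3% of all genes) and below 0 for 10, and its median was 0.15 for the 11 fibrillar, 0.11 for the 16 type IV and laminin and 0.18 for the 24 other chains, beside 0.03 for all genes; these medians depend on scaling and turned to −0.03 (fibrillar) and −0.07 (type IV and laminin) when libraries were scaled to Sertoli cell markers, which put the median of all genes at −0.15. Without WT-1 the fibrillar median was −0.03 and the type IV and laminin median 0.04, and without WT-2 they were 0.27 and 0.24. Positive medians were not particular to the chains. With all libraries and TMM scaling, markers had medians of 0.18 (Sertoli), 0.23 (interstitial stromal), 0.27 (Leydig), 0.22 (endothelial) and 0.39 (erythroid). For peritubular myoid and macrophage markers the medians were −0.16 and −0.04.

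**Figure D2:**
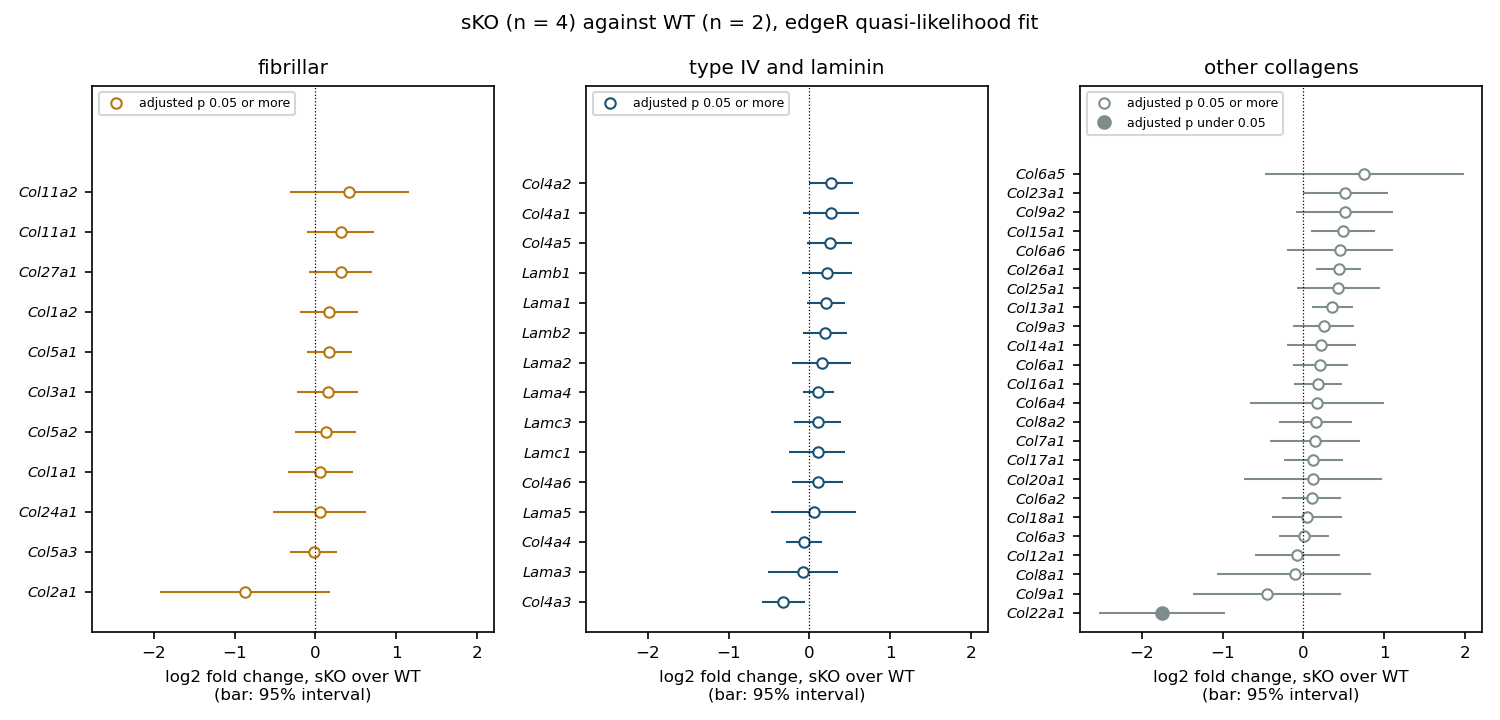
Log2 fold change of sKO over WT for the fibrillar (left), type IV and laminin (middle) and other collagen chains (right), with bars for the 95% interval from the edgeR fit. Col22a1 at −1.75 is the filled point, the 1 chain past the threshold, and most other points lie between −0.5 and 0.5 with intervals that include 0.

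Among fibrillar chains, none of the 11 passed the test. Col1a1 and Col1a2 encode the chains of type I collagen, the main fibre of most connective tissue. Col1a1 had 1143, 1170, 1620 and 1424 CPM in sKO-1 to sKO-4, against 1136 in WT-1 and 1439 in WT-2. Col1a2 had 1922, 1916, 2471 and 2218 CPM in the same sKO libraries, against 1654 and 2144 CPM in WT. Both genes were high in sKO-3, sKO-4 and WT-2 and low in the other libraries, so the groups overlapped. The log2 fold changes were 0.06 for Col1a1 (95% interval −0.34 to 0.46, adjusted p = 0.943) and 0.17 for Col1a2 (−0.19 to 0.52, adjusted p = 0.756). The Col1a1 to Col1a2 ratio per kilobase was 1.13 to 1.24 in sKO and 1.27 to 1.3 in WT, with no overlap. By longest transcript it was 0.564 ± 0.0253 in sKO and 0.612 ± 0.0101 in WT. Both lengths rescale the same counts, so the lack of overlap is the same observation by either length. The ratio was not tested.

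Col3a1 encodes type III collagen, which forms fine fibres together with type I. It had 2001, 1946, 2549 and 2213 CPM in sKO and 1674 and 2256 CPM in WT. Its log2 fold change of 0.15 had an interval of −0.23 to 0.52. Type V collagen starts fibrils and sets their diameter, and its chains Col5a1, Col5a2 and Col5a3 had log2 fold changes of 0.17, 0.13 and −0.02. Col5a1 was at 304 ± 30.7 CPM in sKO and 270 ± 33.0 CPM in WT, Col5a2 at 186 ± 28.6 and 170 ± 30.3 CPM, and Col5a3 at 37.7 ± 3.82 and 38.3 ± 1.91 CPM (SD, n = 4 and 2). Values of sKO and WT libraries overlapped for all 3 genes.

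The minor fibrillar chains were low. Col11a1 and Col11a2 of type XI collagen, best known from cartilage, were at 16.9 ± 2.57 and 2.38 ± 0.555 CPM in sKO and at 13.6 ± 0.324 and 1.78 ± 0.127 CPM in WT. Col27a1 had 12.4, 16.9, 15.2 and 13.7 CPM in sKO, above 11.8 CPM in each WT library, with a log2 fold change of 0.31 (interval −0.08 to 0.70, adjusted p = 0.522). It was the single fibrillar chain at which all sKO libraries exceeded both WT libraries. Col24a1 was at 3.08 ± 0.393 CPM in sKO and 2.98 ± 0.248 CPM in WT. Col2a1, at 0.529, 0.268, 0.693 and 0.578 CPM in sKO and 0.935 and 0.958 CPM in WT, had the lowest log2 fold change of the class, −0.87 (interval −1.92 to 0.18, adjusted p = 0.494). These are 10, 5, 12 and 10 expected counts in sKO and 18 and 17 in WT, so the fold change is imprecise.

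Of the 6 type IV chains, 0 passed the test in either direction. Col4a1 and Col4a2, which together make the ubiquitous type IV network, had positive log2 fold changes in whole testis, while Col4a3 and Col4a4, chains of the specialised network of kidney and testis, had values of −0.33 and −0.07. Without WT-1 the log2 fold changes were 0.12 for Col4a1, 0.14 for Col4a2 and −0.17 for Col4a3, and without WT-2 they were 0.41, 0.38 and −0.50. Col4a1 had 1308, 1298, 1657 and 1568 CPM in sKO, against 1078 CPM in WT-1 and 1344 CPM in WT-2. Col4a2 had 796, 755, 909 and 827 CPM in sKO, against 620 and 744 CPM in WT. At Col4a2 all 4 sKO libraries exceeded both WT libraries, and at Col4a1 the sKO libraries of subset 1 stayed below WT-2. The log2 fold changes were 0.27 for both (SE 0.15 and 0.12), with adjusted p of 0.524 and 0.388, so neither passed. Within the subsets the log2 ratio of sKO to WT was 0.27 and 0.26 for Col4a1 and 0.32 and 0.22 for Col4a2.

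Col4a3 had 78.5, 86.4, 88.1 and 74.6 CPM in sKO, against 113 CPM in WT-1 and 92.1 CPM in WT-2. All 4 sKO libraries lay below both WT libraries, with a log2 fold change of −0.33 (interval −0.59 to −0.06, adjusted p = 0.263). Col4a4 was at 337 ± 26.5 CPM in sKO and 354 ± 0.301 CPM in WT (log2 fold change −0.07). Col4a5, which joins Col4a3 and Col4a4 in 1 trimer and Col4a6 in another, was at 120 ± 11.8 CPM in sKO and 101 ± 12.6 CPM in WT (0.25, adjusted p = 0.456). Col4a6 had values of 37.5 to 42.9 CPM in sKO and 32.1 and 42.1 CPM in WT. The ratio of Col4a3, Col4a4 and Col4a5 to Col4a1 and Col4a2 per kilobase was 0.194, 0.196, 0.175 and 0.164 in sKO, against 0.246 and 0.202 in WT, with no overlap. This ratio was looked at after the values of its chains were seen and was not tested.

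With a term for the library subset, chosen after seeing the data, 0 of 11 fibrillar chains passed in either direction, and 4 type IV and laminin chains were higher in sKO and 1 was lower. The higher ones were Col4a1 (adjusted p = 0.00557), Col4a2 (0.0147), Col4a5 (0.0221) and Lamb1 (0.0248), and the lower one was Col4a3 (0.0442), by edgeR. Of all 51 chains 9 were higher and 2 were lower in that fit, beside 4.97% and 8.65% of all genes. Because the subsets were picked from the same libraries, these p-values may be too small. The median log2 fold change in this fit was 0.16 for the fibrillar and 0.11 for the type IV and laminin chains. Whether fibrillar and basement membrane chains differ from each other was not tested.

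Col4a1 and Col4a2 are a known head-to-head pair that share a promoter, and their windows are printed to show this arrangement. The part of the promoter in their levels was not tested. Each window runs from 250 bases before to 50 bases after the RefSeq start in GRCm38.p6 and is written along its own gene, with capitals for CCAAT and GGGCGG on either strand. The window of Col1a2, a fibrillar chain, is added for comparison.
Col4a1, chr8:11312777-11313076, minus strand: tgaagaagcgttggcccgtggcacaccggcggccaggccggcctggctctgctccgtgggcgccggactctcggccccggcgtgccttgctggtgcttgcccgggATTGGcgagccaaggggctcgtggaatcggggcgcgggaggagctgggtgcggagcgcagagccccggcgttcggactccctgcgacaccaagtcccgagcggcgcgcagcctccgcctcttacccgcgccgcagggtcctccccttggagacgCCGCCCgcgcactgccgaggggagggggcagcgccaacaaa
Col4a2, chr8:11312555-11312854, plus strand: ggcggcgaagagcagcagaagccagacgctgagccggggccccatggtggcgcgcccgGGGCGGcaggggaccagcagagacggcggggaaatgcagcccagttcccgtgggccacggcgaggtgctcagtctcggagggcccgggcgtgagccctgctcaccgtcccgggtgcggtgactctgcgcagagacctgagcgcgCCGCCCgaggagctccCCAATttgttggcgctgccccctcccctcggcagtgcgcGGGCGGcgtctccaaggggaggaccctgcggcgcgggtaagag
Col1a2, chr6:4505368-4505667, plus strand: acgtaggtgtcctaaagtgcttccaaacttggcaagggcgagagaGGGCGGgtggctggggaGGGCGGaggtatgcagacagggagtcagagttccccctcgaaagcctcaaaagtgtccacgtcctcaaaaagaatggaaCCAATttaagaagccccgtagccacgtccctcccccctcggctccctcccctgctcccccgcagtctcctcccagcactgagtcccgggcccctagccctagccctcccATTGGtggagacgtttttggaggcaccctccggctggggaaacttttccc
The Col4a1 start (11312826, minus strand) and the Col4a2 start (11312805, plus strand) lie 21 bases apart. In this annotation the first bases of both transcripts therefore overlap, with no gap between them. The windows of both genes share 78 bases. GGGCGG was found once in the Col4a1 window, 3 times in that of Col4a2 and 2 times in that of Col1a2, and CCAAT 1, 1 and 2 times. The GGGCGG of Col4a1 lies in the shared bases and is also 1 of the 3 of Col4a2. Of 39 windows available for 36 of the 51 chains, 66.7% held GGGCGG and 35.9% CCAAT, beside 35.7% and 37.4% of all 32851 windows. TATAAA was in 10.3% of the chains' windows and 13.6% of all. No overlap between different motifs occurs in the windows printed.

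Laminin genes did not pass the test, 0 of 10 in either direction. Among alpha chains, which carry the sites for cell receptors, Lama2 made up 51.6 ± 3.08% of the class per kilobase in sKO and 51.3 ± 3.43% in WT (SD, n = 4 and 2). Lama1 made up 28.2 ± 1.32% in sKO and 26.9 ± 1.39% in WT. Between sKO and WT these shares differed by less than the spread between libraries. They use the union of exons, by which Lama2 and Lama1 had means of 32.8 and 17.6 CPM per kilobase over the 6 libraries. By longest transcript the means were 55.8 and 17.9, so the shares depend on the length used. Lama2 had 485, 476, 660 and 597 CPM in sKO and 461 and 539 CPM in WT, again high in sKO-3 and sKO-4. Lama1 had 161, 176, 200 and 176 CPM in sKO, all above its 156 and 154 CPM in WT (log2 fold change 0.20, interval −0.03 to 0.44, adjusted p = 0.468).

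Lama4, the alpha chain typical of vessels and muscle, had 67.6, 70.3, 71.6 and 68.1 CPM in sKO and 62.5 and 65.9 CPM in WT. Its log2 fold change of 0.11 had the narrowest interval of all chains, −0.08 to 0.30. Lama5 was at 30.6 ± 7.19 CPM in sKO and 29.6 ± 5.83 CPM in WT. Lama3, an alpha chain of epithelial anchoring, ran the other way between the subsets: it had 54.1 and 59.9 CPM in sKO-1 and sKO-2 and 43.4 and 47.1 CPM in sKO-3 and sKO-4, against 64.6 CPM in WT-1 and 43.7 CPM in WT-2.

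Of the beta chains, Lamb1, the common one, had 793, 736, 906 and 873 CPM in sKO, against 634 and 791 CPM in WT (log2 fold change 0.22, SE 0.13, adjusted p = 0.570). Lamb2 was at 143 ± 10.7 CPM in sKO and 125 ± 19.2 CPM in WT. Lamb1 stood to Lamb2 at 3.55 ± 0.188 per kilobase of the union of exons in sKO and 3.48 ± 0.0111 in WT. By longest transcript the ratio was 5.63 ± 0.299 in sKO and 5.53 ± 0.0176 in WT, so its size depends on the length used. The gamma chains Lamc1, found in most laminins, and Lamc3, a chain of few tissues that include the testis, were similar in level. Per kilobase Lamc1 made up 50.2 ± 0.263% of the gamma chains in sKO and 50 ± 2.82% in WT, and Lamc3 49.5 ± 0.224% in sKO and 49.6 ± 2.94% in WT.

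Among the other collagens, Col22a1 was the chain that fell. It encodes type XXII collagen, a fibril-associated chain known from tissue junctions such as that between muscle and tendon. Col22a1 had 2.65, 1.23, 1.68 and 1.91 CPM in sKO, against 7.63 CPM in WT-1 and 4.96 CPM in WT-2. These are 50.3, 23.15, 29.05 and 33.38 expected counts in sKO and 147.07 and 88.21 in WT. All 4 sKO libraries lay well below both WT libraries, at 1.86 ± 0.591 CPM in sKO and 6.30 ± 1.89 CPM in WT (SD, n = 4 and 2), a log2 fold change of −1.75 (SE 0.34, interval −2.53 to −0.97, edgeR adjusted p = 0.0437). The log2 ratio was −1.98 in subset 1 and −1.47 in subset 2. The call was lost in each of the 6 fits that left out 1 library, with edgeR adjusted p of 0.0536, 0.0985, 0.119 and 0.103 for the sKO libraries in order of number and of 0.419 (WT-1) and 0.072 (WT-2), while the log2 fold change stayed between −2.06 and −1.41. In whole testis, fewer cells of a type and less RNA per cell cannot be told apart.

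Germ cell markers moved with Col22a1: Dazl, which binds RNA in germ cells, had 45.5, 29.0, 29.2 and 43.9 CPM in sKO, against 218 and 155 CPM in WT, and 11 of 11 markers were lower. Of the skeletal muscle markers 1 of 5 tested was lower, Myh3, an embryonic myosin, at 0.159 to 0.214 CPM in sKO and 2.13 and 0.845 CPM in WT. The muscle list summed to 4.68 to 6.83 CPM in sKO and 7.72 to 10.7 CPM in WT. Most of that gap lay in Myh3 and in Actn2, a muscle actinin at 0.578 to 1.91 CPM in sKO and 5.04 and 3.72 CPM in WT (log2 fold change −1.80, edgeR adjusted p = 0.0845), while Ckm, Myh8 and Mylpf had log2 fold changes of 0.39, 0.70 and −0.03 and the list's median was −0.03. The defining gene Acta1 was at 0 to 0.0536 CPM in sKO and at 0 and 0.113 CPM in WT. Of the peritubular myoid markers 1 of 11 was lower, the calponin Cnn1, at 0.741 to 1.1 CPM in sKO and 2.80 and 3.04 CPM in WT, and the list summed to 1389 to 1882 CPM in sKO and 1430 and 1824 CPM in WT. Of the 11, 8 had log2 fold changes below 0 and 3 above 0, with a median of −0.16. Myh11 had 102 to 140 CPM in sKO and 163 and 175 CPM in WT (−0.54, edgeR adjusted p = 0.0948). The part of these cells in the Col22a1 result was not tested.

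**Figure D3:**
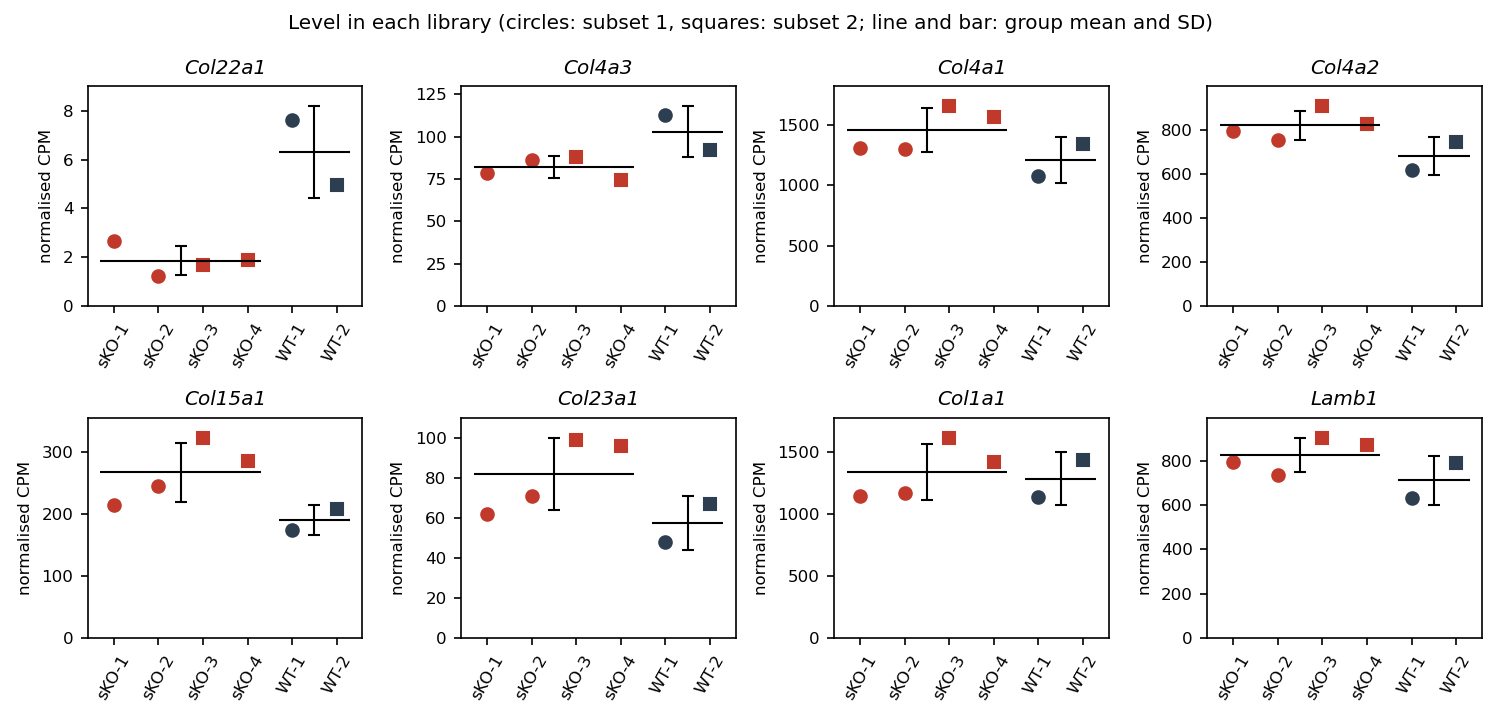
Normalised CPM of 8 chains in each library, sKO on the left in red and WT on the right in dark, with circles for subset 1, squares for subset 2 and the group mean and SD in black. Col22a1 separates the groups, at 1.23 to 2.65 CPM in sKO and 4.96 and 7.63 CPM in WT, while Col1a1 follows the subsets and overlaps between groups.

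The remaining fibril-associated chains did not pass. Col16a1, the most abundant by CPM, had 61.2 to 79.4 CPM in sKO and 59.0 and 67.8 CPM in WT. The type IX chains Col9a1, Col9a2 and Col9a3, partners of cartilage fibrils, had log2 fold changes of −0.45, 0.51 and 0.25. Col9a3 was at 9.53, 9.59, 11.3 and 9.59 CPM in sKO, above 8.36 and 8.45 CPM in WT. Col12a1, Col14a1 and Col20a1 had log2 fold changes of −0.08, 0.22 and 0.12. Cartilage markers, which could accompany these chains, summed to 38.1 to 47.9 CPM in sKO and 31.5 and 34.4 CPM in WT, and 0 of 3 tested were called. The 3 were Acan, Cnmd and Hapln1, with log2 fold changes of 0.82, 0.79 and 0.08 (edgeR adjusted p = 0.344, 0.212 and 0.917). Matn1 and Ucma, too low to be tested, were at or near 0, at most 0.173 and 0.107 CPM.

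Type VI collagen forms beaded filaments around cells. Its main chains Col6a1, Col6a2 and Col6a3 were at 800 ± 94.4, 572 ± 71.3 and 181 ± 24.6 CPM in sKO and at 692 ± 119, 533 ± 106 and 181 ± 16.1 CPM in WT. None passed, and Col6a3 had a log2 fold change of 0.01 (interval −0.30 to 0.31). Col6a1 stood to Col6a2 at 2.62 to 2.73 per kilobase of the union of exons in sKO and at 2.52 and 2.43 in WT. Their means over the 6 libraries were 174 and 67.1 CPM per kilobase by that length. By longest transcript they were 186 and 114, so the size of the ratio depends on the length used. The ratio was not tested. The alternative chains Col6a4, Col6a5 and Col6a6 behaved unlike these. Col6a6 had 67.0, 31.9, 65.6 and 63.4 CPM in sKO and 43.4 and 39.8 CPM in WT. Col6a4 had 50.1, 19.9, 56.4 and 48.6 CPM in sKO and 38.7 and 39.0 CPM in WT, and Col6a5 had 1.96, 0.536, 1.62 and 1.56 CPM in sKO and 0.831 and 0.845 CPM in WT. In all 3 genes sKO-2 was the lowest of the 6 libraries, and the other sKO libraries were above both WT libraries.

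Several chains of other kinds also had positive values that did not pass the test. Col15a1, a multiplexin that links basement membranes to fibrils, had 214, 244, 323 and 285 CPM in sKO, against 173 and 207 CPM in WT (log2 fold change 0.49, SE 0.17, adjusted p = 0.261). Its relative Col18a1, the source of endostatin, was at 417 ± 59.6 CPM in sKO and 407 ± 113 CPM in WT. Of the transmembrane collagens, Col23a1 had 62.1, 71.1, 99.2 and 95.9 CPM in sKO and 48.0 and 67.3 CPM in WT (0.51, adjusted p = 0.399), and Col13a1 36.6, 34.4, 34.3 and 38.6 CPM in sKO and 26.7 and 29.6 CPM in WT (0.35, adjusted p = 0.202). Col26a1 had 52.3, 49.4, 52.6 and 53.1 CPM in sKO and 33.7 and 42.9 CPM in WT, with the smallest unadjusted p after Col22a1 (0.00632; log2 fold change 0.44, adjusted p = 0.133). At Col15a1, Col13a1 and Col26a1 the groups did not overlap, and at Col23a1 sKO-1 lay below WT-2. With the subset as a term, chosen after seeing the data, Col23a1 (edgeR adjusted p = 0.00251), Col15a1 (0.00475), Col26a1 (0.00906), Col6a1 (0.0248) and Col13a1 (0.0273) were higher and Col22a1 (0.00559) was lower. Col17a1 (9.03 ± 0.477 CPM in sKO, 8.30 ± 0.212 CPM in WT), Col25a1, Col7a1, Col8a1 and Col8a2 had log2 fold changes of 0.12, 0.43, 0.14, −0.11 and 0.15.

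Over all 51 chains, the 4 sKO libraries exceeded both WT libraries at 9 (17.6%, against 9.79% of all genes) and lay below both at 3 (5.88%, against 13.3%). The 3 were Col22a1, Col4a3 and Col2a1. The sKO to WT ratio was above 0 on the log2 scale within both subsets for 31 chains (60.8%, against 37.7% of all genes) and below 0 within both for 6 (11.8%, against 30.7%). These shares were not tested.

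**Figure D4:**
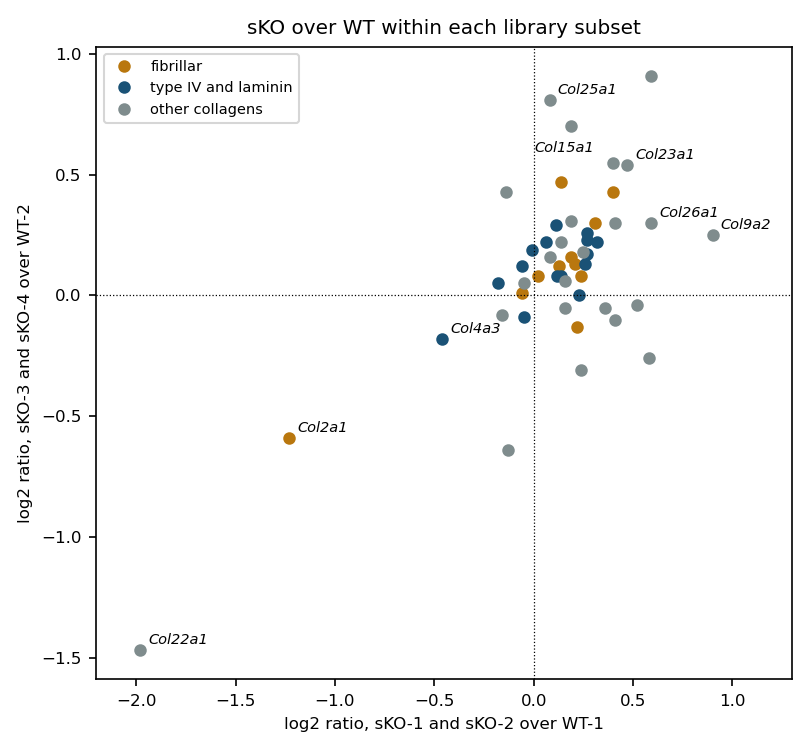
Log2 ratio of sKO to WT for 50 chains in subset 1 (x axis) and in subset 2 (y axis), from normalised CPM. Most chains sit near 0, 31 lie above 0 on both axes, and Col22a1 stands apart at −1.98 and −1.47.

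The chains also differed between the library subsets. Fibrillar chains summed to 5585, 5543, 7291 and 6433 CPM in sKO-1 to sKO-4, against 4929 CPM in WT-1 and 6394 CPM in WT-2. Type IV chains summed to 2684, 2617, 3193 and 2943 CPM in sKO, against 2291 and 2686 CPM in WT. Laminins summed to 2117, 2093, 2587 and 2441 CPM in sKO, against 1904 and 2230 CPM in WT. In each class the highest libraries were sKO-3 and sKO-4, the lowest was WT-1, and WT-2 lay above sKO-1 and sKO-2. The median log2 ratio of subset 2 to subset 1 over the 51 chains was 0.22 in sKO and 0.25 in WT, beside −0.03 and −0.01 over all genes. Of the chains 36 (70.6%, against 36.0% of all genes) were higher in subset 2 in both groups. In size, the mean subset log2 ratio exceeded the sKO to WT log2 fold change at 54.9% of the chains and 60.3% of all genes. The subsets were picked from the expression values of these same libraries, so a difference between them is partly built in. It was not tested. Over the 51 chains the summed normalised CPM was 14083 ± 1671 in sKO and 12593 ± 1961 in WT (SD, n = 4 and 2).

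**Figure D5:**
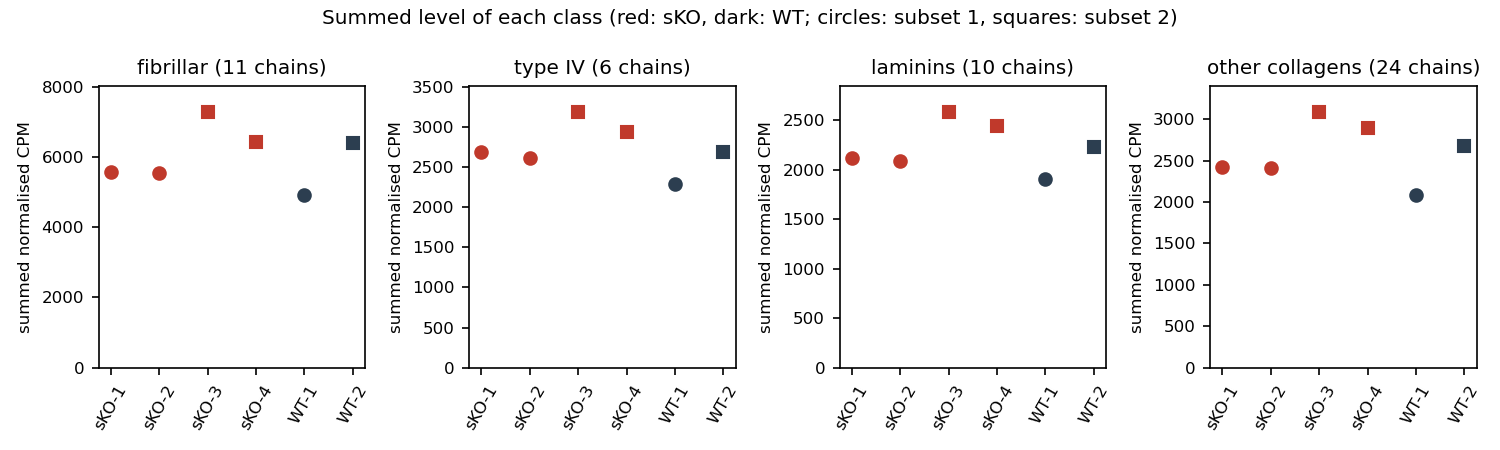
Summed normalised CPM of the fibrillar, type IV, laminin and other collagen chains in each library, sKO left of WT, with circles for subset 1 and squares for subset 2. Fibrillar chains reach 7291 CPM in sKO-3 and 4929 CPM in WT-1, and within each group the squares lie above the circles.

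Interstitial stromal markers followed the same order, with sums of 2900, 3006, 3714 and 3438 CPM in sKO and 2303 and 3016 CPM in WT. Of these 13 markers 0 were called, and the defining gene Pdgfra had 697, 686, 979 and 871 CPM in sKO and 545 and 710 CPM in WT. Sertoli cell markers summed to 9281 to 10509 CPM in sKO and 7929 and 9529 CPM in WT, and of 18 tested 1 was higher (Amh, log2 fold change 0.45, adjusted p = 0.0429) and 1 lower (Tsc22d3, −1.03, adjusted p = 0.011). Endothelial markers summed to 332 to 402 CPM in sKO and 299 and 335 CPM in WT, with 0 of 11 called. Leydig cell and macrophage markers had 0 of 7 and 0 of 9 called. Sums were 812 to 1233 CPM in sKO and 736 and 928 CPM in WT for Leydig cells, and 67.5 to 84.3 CPM in sKO and 77.0 and 80.9 CPM in WT for macrophages. Erythroid markers summed to 487 to 709 CPM in sKO and 401 and 402 CPM in WT, with 0 of 6 called. Mesothelial and epididymal markers stayed low, at no more than 2.87 and 11.3 CPM in sum, with 0 of 3 and 0 of 5 called. With the subset as a term, 7 of 13 stromal markers (Pdgfra among them, edgeR adjusted p = 0.00424), 7 of 18 Sertoli, 2 of 6 erythroid, 1 of 11 endothelial and 1 of 11 myoid markers were higher in sKO. In that fit 11 of 11 germ cell, 3 of 11 myoid, 2 of 5 skeletal muscle and 1 of 18 Sertoli markers were lower, and no marker of the remaining lists was called. Over all genes 4.97% were higher and 8.65% lower in it. The term was chosen after seeing the data, so its p-values may be too small. The part of any of these cells in the levels of the chains was not tested.

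Lists of genes that make, bind and cleave the matrix had median log2 fold changes of 0.09 to 0.21, and no gene in them passed the test. Single genes ran from −1.24 (Mmp9) to 0.78 (P4ha3). Of 29 tested enzymes and chaperones of collagen assembly 0 were called (median log2 fold change 0.20). The most abundant were Serpinh1, the collagen chaperone, at 609 ± 128 CPM in sKO and 527 ± 124 CPM in WT, and P4hb, a subunit of prolyl hydroxylase, at 459 ± 56 and 462 ± 54 CPM. Of 17 basement membrane partners 0 were called (median 0.21), with Sparc, a collagen-binding protein, at 2920 ± 222 CPM in sKO and 2481 ± 436 CPM in WT. Nid1, which bridges laminin and type IV collagen, had 536, 543, 607 and 605 CPM in sKO, all above its 412 and 500 CPM in WT (0.33, adjusted p = 0.246).

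Of 18 fibril-bound proteoglycans and glycoproteins 0 were called (median 0.09), with Dcn at 847 ± 74.5 CPM in sKO and 676 ± 109 CPM in WT and Bgn at 529 ± 50.3 and 479 ± 56.6 CPM. Of 13 receptors 0 were called (median 0.15), with 9 log2 fold changes above 0 and 4 below 0, from −1.04 to 0.31. The most abundant were the laminin receptor Dag1 at 862 ± 94.7 CPM in sKO and 777 ± 83.9 CPM in WT and the integrin subunit Itgb1 at 744 ± 85.0 and 682 ± 103 CPM. Of 16 proteases and inhibitors 0 were called (median 0.21), with Mmp14, a membrane collagenase, at 309 ± 23.5 CPM in sKO and 253 ± 16.1 CPM in WT and Adamts5 at 339 ± 33.3 and 297 ± 18.9 CPM. With the subset as a term the numbers higher and lower were 9 and 0 for assembly, 6 and 0 for basement membrane partners, 2 and 0 for fibril-bound proteins, 0 and 2 for receptors, and 4 and 1 for proteases and inhibitors. Over all genes 4.97% were higher and 8.65% lower in that fit. Its term was chosen after seeing the data, so these calls may be too many.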

How the data were processed

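The authors deposited 1 table of expected counts, which need not be whole, for 57170 gene identifiers in 6 libraries. Per the submitters' processing notes the build was mm39 and the tools named are RSEM, STAR and fastp; their versions, the annotation and any use of strand are not given in sources used here. Symbols came from GENCODE M21 (GRCm38), which matched 51742 identifiers (90.5%) holding 99.2% of the counts; 444 identifiers without an Ensembl form hold 0.326%. Counts were rounded, filtered with filterByExpr (minimum count 10), scaled by TMM and tested with edgeR 4.0.16 (R 4.3.3; quasi-likelihood, two-sided, 17707 genes, threshold 0.05). SE is the log2 fold change over the root of F. Members and lists were chosen with earlier results of these data known. Named were, except for 1 chain that is counted but not reported here, each fibrillar, type IV and laminin chain, of other classes the called or 2 most abundant, of partner lists up to 4 called or the 2 most abundant, and Mdm2; other names followed their values. Replicates differed by chi-square per gene of 3.92 to 23.68, where sampling noise gives about 1, so none were pooled. Depth of 17990837 to 18394437 counts leaves counting error small except for chains of a few CPM. RSEM shares reads between similar genes. Alternatives were DESeq2 1.42.0, RLE size factors, library sizes from Sertoli cell markers, other count filters, a block on the replicate number and leaving out each library; the subset term was added after seeing the data. Lengths and coding sequences came from GENCODE M21 and promoter windows from RefSeq (GRCm38.p6), with no coordinate carried over from mm39.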

Additional observations from a re-analysis of the deposited data

Results flagged for a closer look

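In 3 of the 51 chains 1 sKO library stood far from the other 3 by Dixon's test at its 95% critical value, which chance gives in about 1 in 20 groups. Col9a2 was at 32.6 CPM in sKO-4, against 23.7 to 24.4 CPM in the other sKO libraries. Col9a3 was at 11.3 CPM in sKO-3, against 9.53 to 9.59 CPM in the others. Col6a6 was at 31.9 CPM in sKO-2, against 63.4 to 67.0 CPM in the others.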

How the results depend on the processing

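With 2 WT libraries, counts of calls were unstable. Genes higher and lower in sKO numbered 22 and 408, and 81 and 649 by DESeq2. They numbered 8 and 588 under Sertoli scaling and 19 and 268 under the replicate block. Without a count filter they numbered 30 and 541, and with a filter of 1 CPM in 4 libraries 15 and 324. With the subset term (chosen after seeing the data) they numbered 880 and 1531. Leaving out 1 library gave 2 to 7 higher and 1 to 225 lower; without 1 WT library the lone sample is assumed to vary like the sKO group. Chains higher and lower numbered 0 and 1, with 0 lower under the block, 9 and 2 with the subset term, and 0 and 0 (0 to 0) without any 1 library. Medians under Sertoli scaling were −0.03 (fibrillar), −0.07 (type IV and laminin) and −0.15 (all genes), and without 1 library the fibrillar median ran from −0.03 to 0.27 and that of type IV and laminin chains from 0.04 to 0.24. The fibrillar to type IV and laminin ratio was 1.48 by longest transcript.

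Scaled to Sertoli cell markers, log2 fold changes changed sign for Col18a1 and Lama5 (−0.14), Col1a1 and Col24a1 (−0.13), Lamc1 and Lamc3 (−0.09), Col6a2 (−0.08), Col4a6 and Lama4 (−0.07), Col5a2 (−0.06), Lama2 (−0.04), Col3a1 (−0.03), Col7a1 and Col8a2 (−0.02), and Col1a2 and Col5a1 (−0.01). Under the replicate block they did so for Lama5 (−0.27), Col1a1 (−0.16), Col18a1 (−0.14), Lamc3 (−0.08), Lama2 and Lamc1 (−0.07), Col5a2 and Col6a2 (−0.06) and Lama3 (0.09), and Col22a1 (−1.76) lost its call (adjusted p = 0.0591, edgeR). Without 1 library, sign changes fell within −0.22 to 0.32 for Col18a1, −0.10 to 0.21 for Col1a1, −0.01 to 0.34 for Col1a2, −0.04 to 0.11 for Col24a1, −0.05 to 0.35 for Col3a1, −0.08 to 0.28 for Col4a6, −0.04 to 0.29 for Col5a2, −0.08 to 0.04 for Col5a3, −0.09 to 0.29 for Col6a2, −0.03 to 0.31 for Col7a1, −0.37 to 0.23 for Lama3, −0.14 to 0.24 for Lama5 and −0.07 to 0.25 for Lamc1. The cause was not tested. DESeq2, RLE size factors and either count filter turned the sign of no named chain.

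The groups share only replicate numbers 1 and 2. Deviations of same-numbered libraries correlated at 0.42 for number 1 and −0.44 for number 2, so the numbers do not pair the libraries, and the block is given only as an alternative.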
